A study of Mus musculus with 6 samples.

Results

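The genes described here are 10 ligands through which CD8 T cells act on other cells: the cytokine genes Ifng, Tnf, Lta, Ltb, Csf2, Il2 and Il10 and the genes of the death and costimulatory ligands Fasl, Tnfsf10 and Tnfsf14. They were selected by name from the 40879 genes of the deposited count table, and all 10 passed the filter on low counts. The series holds poly-A RNA sequencing of CD8 T cells taken from MC38-hPD-L1 tumours on C57BL/6N mice, 12 days into tumour growth, with MC38 being a mouse colon carcinoma line. Proximity labelling with a photocatalyst had put biotin on cells close to it, and flow cytometry parted the CD8 T cells into Biotin+ cells, described by the submitters as neighbouring the tumour, and Biotin- cells, described as distal to it. Each group had 3 libraries, numbered 1 to 3, and no further treatment or genotype separates the groups in the labels. The labels used here do not state how many mice went into a library, so the p-values measure the spread between these libraries.

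Cytotoxic T cells kill either by granule proteins or by ligands that engage death receptors, and they also secrete cytokines after their antigen receptor is triggered. Interferon gamma acts on most nucleated cells and raises antigen presentation, TNF and the lymphotoxins act through NF-kappaB and, in some cells, caspases, and Fas ligand and TRAIL bind receptors with a death domain. Cytokine transcripts of this kind are made in bursts after stimulation and many are short-lived, because AU-rich elements in their 3′ untranslated regions recruit decay factors such as tristetraprolin. In tumours, chronically stimulated CD8 T cells are known to lose IL-2 and TNF production before interferon gamma.

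Totals ran from 16423106 to 19640693 counts per library. The 15 CD8 T cell identity genes (Cd8a, Cd3e, Lck and others) took 0.833 to 0.891% of the counts in Biotin+ and 0.492 to 0.645% in Biotin-. The 11 fibroblast and endothelial markers took 0.00807 to 0.0211% in Biotin+ and 0.0729 to 0.110% in Biotin-. The 10 macrophage and monocyte markers took 0.0467 to 0.169% and 0.0927 to 0.305%, of which Ly6c2 is also a T cell gene. Without it, the other 9 took 0.0740, 0.0623 and 0.0274% in Biotin+ replicates 1, 2 and 3 and 0.254, 0.0624 and 0.0927% in Biotin- replicates 1, 2 and 3. All other marker lists (dendritic cells, neutrophils, B cells, CD4 T cells, NK cells and tumour or epithelial cells) were at or under 0.0174% in every library, and of all markers only Krt20 had no count. In sorted bulk cells, a lower share of one cell type and less RNA per cell cannot be told apart.

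The AU-rich elements are shown because the 10 genes differ in them. The 2 sets used below come from a chosen line of 5 pentamers per kilobase, so they depend on the length of the region. The pentamer ATTTA, searched on the transcript strand, occurred at 5 or more copies per kilobase of the longest annotated 3′ untranslated region in 6 of the 10 genes, against 6.09% of 11928 tested genes with such a region. Csf2 had 28.4 copies per kilobase (9 in 317 bases), Il2 12.0, Tnf 10.5, Ifng 9.51, Il10 8.499 and Lta 5.24. The other 4 were Tnfsf10 with 2.001, Fasl with 1.13, Tnfsf14 with 0.981 and Ltb with none in 174 bases, where all tested genes together had 1.81. By number alone, Tnfsf10 had 8 pentamers (in 3998 bases), as many as Tnf (8 in 764 bases). The longer element TTATTTATT, which contains the pentamer, was found in Tnf (5 times), Csf2 (4), Lta and Il2 (1 each), and in 8.28% of the tested genes. Ifng and Il10, above the line for the pentamer, had none of it. The densest 30-base windows of 5 of the genes follow, 5′ to 3′ on the transcript strand, with the pentamers in capitals. They come from GENCODE M21 on GRCm38, a different build from the GRCm39 named by the submitters, and lie at chr10:118445333-118445362 (Ifng, plus strand), chr17:35199677-35199706 (Tnf, minus), chr17:35203394-35203423 (Lta, minus), chr11:54247324-54247353 (Csf2, minus) and chr3:37121039-37121068 (Il2, minus).
Ifng: ctATTTAttaatATTTAaaactATTTAtat
Tnf: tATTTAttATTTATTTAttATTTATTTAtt
Lta: aaagttaagttATTTATTTAtagagaatag
Csf2: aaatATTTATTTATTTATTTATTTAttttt
Il2: tATTTATTTAaatATTTAactttaATTTAt
The Csf2 and Tnf windows hold 5 overlapping or adjacent pentamers each, the Il2 window 4, the Ifng window 3 and the Lta window 2.

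None of the 10 genes passed an adjusted p of 0.05 between Biotin+ and Biotin- in edgeR's quasi-likelihood test, in a comparison that called 8.26% of 13360 tested genes (1.53% higher and 6.72% lower). Before adjustment, 2 of the 10 were higher (Ifng and Fasl) and 0 lower at p under 0.05, where 8.62% of tested genes were higher and 13.9% lower. The DESeq2 Wald test called 0 of the 10 after adjustment, beside 2.61% of genes higher and 9.32% lower. In limma-voom 0 passed after adjustment, where 2.48% of genes were called higher and 6.98% lower. Its unadjusted p put 4 members on the higher side and 1 on the lower, against 10.4% and 15.6% of genes. In edgeR, log2 fold changes of the 10 (Biotin+ minus Biotin-) ran from -1.42 for Il2 to 0.94 for Ifng, with a median of 0.14 beside 0.06 over all tested genes. Positive values belonged to Ifng, Fasl, Lta, Ltb and Tnfsf10, and negative values to Tnf, Il10, Csf2, Tnfsf14 and Il2. Of the 6 genes with 5 or more pentamers per kilobase, Ifng and Lta lay on the positive side. Of the other 4, only Tnfsf14 lay on the negative side. None of these values passed, and several signs changed with the scaling or when single libraries were left out. A link between the AU-rich elements and the direction was not tested.

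The labels do not say what a replicate number marks. It was taken as a pair because same-numbered libraries varied alike in these same counts, so the block is an assumption. With the number as a block, Ifng and Fasl passed, both higher, against a background of 5.60% called higher and 12.0% called lower. In the plot of counts by library, 4 of the 10 genes were higher in Biotin+ in every same-numbered pair (Ifng, Lta, Ltb and Fasl), beside 26.8% of tested genes. Tnfsf14, Csf2 and Il2 were lower in every pair, beside 24.0% of tested genes. Tnf, Tnfsf10 and Il10 had pairs on both sides. The group ranges did not overlap for 1 of the 10, Fasl, on the higher side, where 13.4% of tested genes did so.

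**Figure D1:**
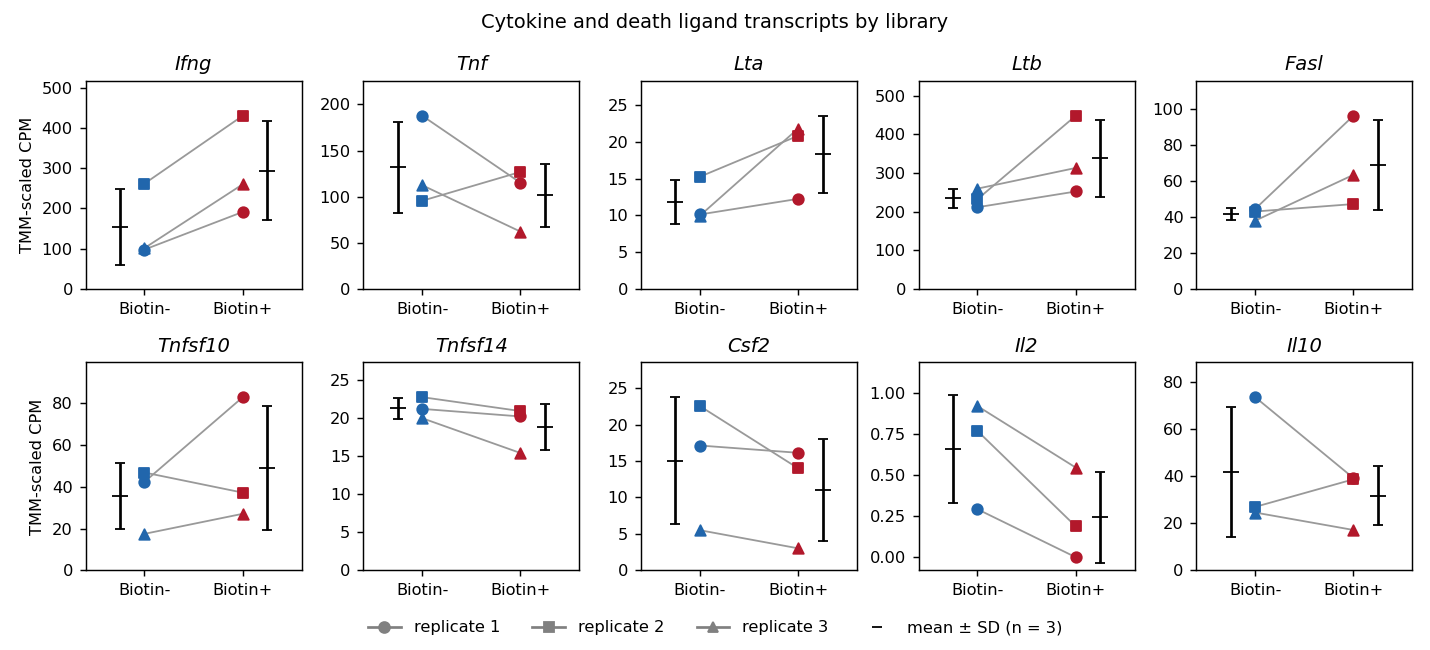
Levels of the 10 genes in CPM (TMM-scaled, linear axis from 0, slightly below 0 for Il2 to show a library at 0) in each Biotin- (blue) and Biotin+ (red) library; grey lines join libraries with the same replicate number, and black bars give the mean ± SD of 3 libraries. On all 3 lines, Ifng, Lta, Ltb and Fasl are higher in Biotin+ and Tnfsf14, Csf2 and Il2 lower, and the groups overlap for every gene but Fasl.

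CPM are counts scaled to a common library size. Levels between genes were compared per kilobase of annotated exon. Ifng and Ltb stood at the top in both groups. Ifng averaged 227 ± 95.04 CPM per kilobase in Biotin+ and 119 ± 72.2 in Biotin- (SD, n = 3), and Ltb 223 ± 66.2 and 155 ± 15.9. Tnf followed, at 61.8 ± 21.0 and 80.5 ± 29.95. In Biotin+ the ranges of Ltb and Tnf did not overlap, whereas in Biotin- those of Ifng and Tnf did. Fasl, Il10, Csf2, Lta, Tnfsf14 and Tnfsf10 came next, from 35.7 ± 12.9 for Fasl to 9.33 ± 5.65 for Tnfsf10 in Biotin+, and each of these overlapped the next in Biotin+. In Biotin- the ranges of Tnf and the next gene, Il10, did not overlap, and the other neighbours below Tnf did, down to Tnfsf10. The lowest was Il2, at 0.213 ± 0.242 and 0.577 ± 0.286, apart from all the others. The 10 genes together took 0.0787 to 0.0965% of the counts in Biotin+ and 0.0664 to 0.0783% in Biotin-. Of their summed counts, Ifng made up 23.2, 36.3 and 33.2% in Biotin+ replicates 1, 2 and 3 and 13.9, 34.1 and 17.2% in Biotin- replicates 1, 2 and 3.

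Ifng encodes interferon gamma, the main macrophage-activating cytokine of CD8 T cells. It measured 191, 431 and 260 CPM in Biotin+ replicates 1, 2 and 3 and 97.9, 262 and 102 CPM in Biotin- replicates 1, 2 and 3. Replicate 2 was the highest library of each group, and the Biotin- library of that number lay above 2 of the 3 Biotin+ values, so the groups overlapped. Within pairs, Biotin+ was 1.96, 1.64 and 2.56 times the Biotin- level. The log2 fold change was 0.94 ± 0.41 (SE, 95% interval 0.03 to 1.84, edgeR adjusted p = 0.203), and 1.01 ± 0.19 (interval 0.62 to 1.41, adjusted p = 0.000983) with the replicate block. The group-alone value was 1.49 without Biotin- replicate 2 and passed (edgeR adjusted p = 0.0397). Leaving out Biotin+ replicate 2 instead lowered it to 0.54 (edgeR adjusted p = 0.527). It was 0.69 and 0.71 without Biotin- replicates 1 and 3, and neither passed.

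Among 8429 candidates with a mean of at least 10 CPM, genes whose log2 CPM was most like that of Ifng over the 6 libraries included Parp2, Cdk5rap1, Dcun1d5 and Fam118b. Their Pearson correlations with Ifng were between 0.991 and 0.995, and the 6 points share libraries, depth and pairing. Picking the highest of 8429 candidates on 6 points gives high correlations by itself, so these values are no evidence of shared control. Parp2 encodes a DNA repair enzyme. The log2 fold changes of these 4 were smaller than that of Ifng, from 0.27 for Parp2 to 0.51 for Cdk5rap1.

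Tnf, Lta and Ltb are neighbours within the major histocompatibility complex region and encode TNF and the subunits of the lymphotoxins. Tnf measured 115, 127 and 62.1 CPM in Biotin+ replicates 1, 2 and 3 and 188, 95.5 and 112 CPM in Biotin- replicates 1, 2 and 3. The highest of the 6 was Biotin- replicate 1 and the lowest Biotin+ replicate 3, with the rest intermixed. Its log2 fold change was -0.38 ± 0.32 (SE, interval -1.08 to 0.32, edgeR adjusted p = 0.520). Leaving out Biotin- replicate 1 brought it to -0.035, and leaving out Biotin+ replicate 3 to -0.12.

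Lta encodes lymphotoxin alpha, which is secreted alone or held at the membrane by lymphotoxin beta. It measured 12.2, 20.8 and 21.8 CPM in Biotin+ replicates 1, 2 and 3 and 10.1, 15.2 and 9.95 CPM in Biotin- replicates 1, 2 and 3. The Biotin+ value of replicate 1 lay below the Biotin- value of replicate 2, and the remaining values were separated. The log2 fold change was 0.64 ± 0.31 (SE, interval -0.04 to 1.31, edgeR adjusted p = 0.252).

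Ltb, the membrane-anchored partner, measured 252, 448 and 313 CPM in Biotin+ replicates 1, 2 and 3 and 211, 232 and 259 CPM in Biotin- replicates 1, 2 and 3. Only Biotin+ replicate 1 fell inside the Biotin- range. Its log2 fold change was 0.53 ± 0.24 (SE, interval -0.00042 to 1.05, edgeR adjusted p = 0.222; 0.0880 with the replicate block). Without Biotin+ replicate 2 it was 0.24, and without both libraries numbered 2 it was 0.20.

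The death ligands differed from each other in how steady they were. Fasl encodes Fas ligand, which kills Fas-bearing targets. It measured 96.4, 47.3 and 63.5 CPM in Biotin+ replicates 1, 2 and 3 and 44.5, 43.1 and 38.0 CPM in Biotin- replicates 1, 2 and 3. All Biotin+ values were above all Biotin- values, although replicate 2 exceeded the highest of them by little. The Biotin- libraries spanned a 1.17-fold range and the Biotin+ libraries a 2.04-fold range. The log2 fold change was 0.72 ± 0.26 (SE, interval 0.15 to 1.30, edgeR adjusted p = 0.125), and 0.67 ± 0.22 (interval 0.20 to 1.13, adjusted p = 0.0470) with the replicate block. Without Biotin+ replicate 1, the highest library, the group-alone value was 0.41 (edgeR adjusted p = 0.307).

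Tnfsf10 encodes TRAIL, which engages the death receptor encoded by Tnfrsf10b. It measured 83.0, 37.3 and 27.1 CPM in Biotin+ replicates 1, 2 and 3 and 42.4, 46.9 and 17.5 CPM in Biotin- replicates 1, 2 and 3. A single library, Biotin+ replicate 1, lay above the Biotin- range. Its log2 fold change was 0.46 ± 0.44 (SE, interval -0.51 to 1.44, edgeR adjusted p = 0.581), and it was -0.14 without that library (adjusted p = 0.857).

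Tnfsf14 encodes LIGHT, a costimulatory ligand of the herpesvirus entry mediator and the lymphotoxin beta receptor. At 20.2, 20.9 and 15.4 CPM in Biotin+ replicates 1, 2 and 3 and 21.2, 22.7 and 19.9 CPM in Biotin- replicates 1, 2 and 3, it varied least among the 10 genes in both groups. Its log2 fold change was -0.18 ± 0.23 (SE, interval -0.68 to 0.33, edgeR adjusted p = 0.7001). It was -0.047 without Biotin+ replicate 3. With all libraries, TMM scaling and the group alone, the interval excludes a doubling or a fall to less than 0.5 of the Biotin- level. With libraries scaled to the CD8 T cell identity genes, the value was -0.94 ± 0.26 (SE, edgeR adjusted p = 0.0269). Under that scaling, a fall to less than 0.5 is not excluded.

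Csf2 encodes GM-CSF, a growth factor of myeloid cells. It measured 16.1, 14.0 and 3.03 CPM in Biotin+ replicates 1, 2 and 3 and 17.1, 22.5 and 5.51 CPM in Biotin- replicates 1, 2 and 3. The libraries numbered 3 were the lowest in both groups, and the groups overlapped. Its log2 fold change was -0.45 ± 0.60 (SE, interval -1.78 to 0.89, edgeR adjusted p = 0.717) and 0.00 without Biotin+ replicate 3.

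Il2 encodes the T cell growth factor interleukin 2 and was near the limit of detection. Biotin+ replicates 1, 2 and 3 had 0, 3 and 9 counts, and Biotin- replicates 1, 2 and 3 had 6, 14 and 17. The count of 0 allows up to 0.162 CPM in that library, at 3 counts and for counting error only. The groups overlapped between 6 and 9 counts. Its log2 fold change of -1.42 ± 1.07 (SE, interval -3.78 to 0.93, edgeR adjusted p = 0.470) depends in part on how the fit treats the library at 0, and no difference was detectable at this depth. Leaving out Biotin+ replicate 1 gave -0.83, and leaving out Biotin+ replicate 3 gave -2.78.

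Il10 encodes interleukin 10, which restrains macrophages and is also made by them. It measured 39.2, 38.6 and 17.1 CPM in Biotin+ replicates 1, 2 and 3 and 73.5, 26.9 and 24.5 CPM in Biotin- replicates 1, 2 and 3. Biotin- replicate 1 stood far above the next library, at 39.2 CPM, and the other 5 were intermixed. On the log2 scale, the difference was -0.40 ± 0.44 (SE, interval -1.37 to 0.57, edgeR adjusted p = 0.645), and it was 0.30 without Biotin- replicate 1 (adjusted p = 0.782).

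With or without Ly6c2, the same libraries were at the extremes of the macrophage and monocyte marker share and of Il10 and Tnf. Biotin- replicate 1, the highest library for both genes, also had the largest share of the 9 markers (0.254% of counts), and Biotin+ replicate 3, the lowest for both, had the smallest (0.0274%). The remaining 4 libraries had shares of 0.0623 to 0.0927%, Il10 at 24.5 to 39.2 CPM and Tnf at 95.5 to 127 CPM. These 4 are too few and too close in share to show whether the genes follow it. Among them, Biotin- replicate 3 had the largest share (0.0927%) and the lowest Il10 (24.5 CPM). Biotin+ replicate 2 had the smallest share (0.0623%) and the highest Tnf (127 CPM). With Ly6c2 kept, the shares were 0.169, 0.0990 and 0.0467% in Biotin+ replicates 1, 2 and 3 and 0.305, 0.0927 and 0.118% in Biotin-. Biotin- replicate 1 and Biotin+ replicate 1 then had the largest shares and the highest Il10. Biotin- replicate 3 came next in share, with Il10 at 24.5 CPM. Tnf was highest after Biotin- replicate 1 in Biotin+ replicate 2. Ifng was lowest in Biotin- replicate 1 (97.9 CPM) and highest in Biotin+ replicate 2 (431 CPM). The part of these markers in the levels of Il10 and Tnf was not tested, and leaving Ly6c2 out of the list was decided after its counts were seen.

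**Figure D2:**
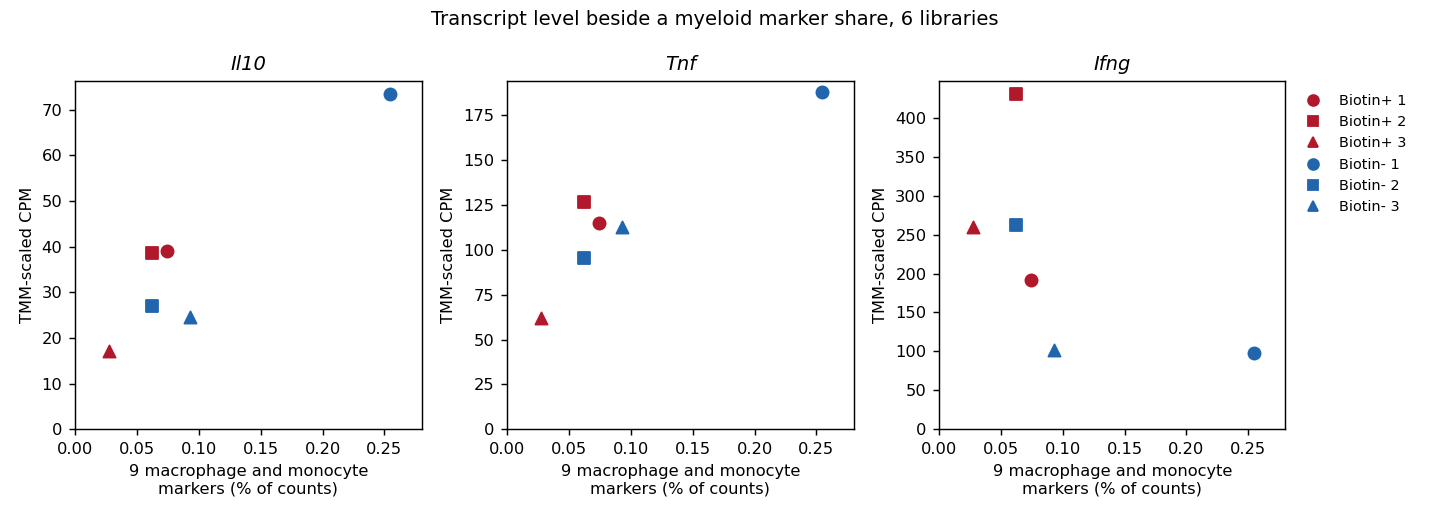
Level of Il10, Tnf and Ifng (TMM-scaled CPM) against the share of counts taken by 9 macrophage and monocyte markers (percent) in the 6 libraries; colour gives the group and shape the replicate number. Biotin- replicate 1 lies at the upper right for Il10 and Tnf and at the lower right for Ifng, and Biotin+ replicate 3 lies at the lower left for Il10 and Tnf.

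Ratios of counts between genes within a library do not depend on how libraries are scaled. Ifng per Tnf was 1.66, 3.39 and 4.19 in Biotin+ replicates 1, 2 and 3 and 0.521, 2.74 and 0.903 in Biotin- replicates 1, 2 and 3. It was higher in Biotin+ in 3 of 3 pairs, by 3.19, 1.24 and 4.64 times. The groups overlapped through replicate 2 (exact unpaired permutation test on log2 ratios, two-sided p = 0.2). Ifng per Csf2 was 11.9, 30.8 and 85.9 in Biotin+ and 5.72, 11.6 and 18.4 in Biotin-, also higher in 3 of 3 pairs. Lta per Tnf was higher in 3 of 3 pairs and Fasl per Tnf in 2 of 3. All 4 ratios, chosen after the values were seen, gave an exact permutation p of 0.2 (0.2 after Benjamini-Hochberg adjustment over the 4), where 3 against 3 libraries cannot go below 0.1. The test did not use the pairs. All 4 ratios contain Tnf or Ifng, so their p-values are not separate results.

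The fold changes depended on the scaling because the CD8 T cell identity genes were themselves higher in Biotin+ (15 of 15 positive, median log2 fold change 0.73). When libraries were scaled to these genes, the median of all genes moved by -0.75. Ifng then had a log2 fold change of 0.21 (edgeR adjusted p = 0.604) and Fasl of 0.00, so that both were level with the identity genes. Lta, Ltb and Tnfsf10 turned to -0.10, -0.28 and -0.21, none of which passed. Tnf (-1.18, edgeR adjusted p = 0.0287) and Tnfsf14 (-0.94, adjusted p = 0.0269) were called lower, as were 29.4% of all tested genes (29.6% were called in either direction). Scaled this way and with the replicate block, 4 of the 10 were called lower, now also Csf2 (-1.28) and Il10 (-1.06), where 55.7% of tested genes were, and Fasl was at -0.09. Tnf, Tnfsf14, Csf2, Il10 and Il2 lay below the median gene and the other 5 above it. A change of scaling moves all genes by nearly the same amount. That this order also held under the identity scaling is therefore no second test of it.

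**Figure D3:**
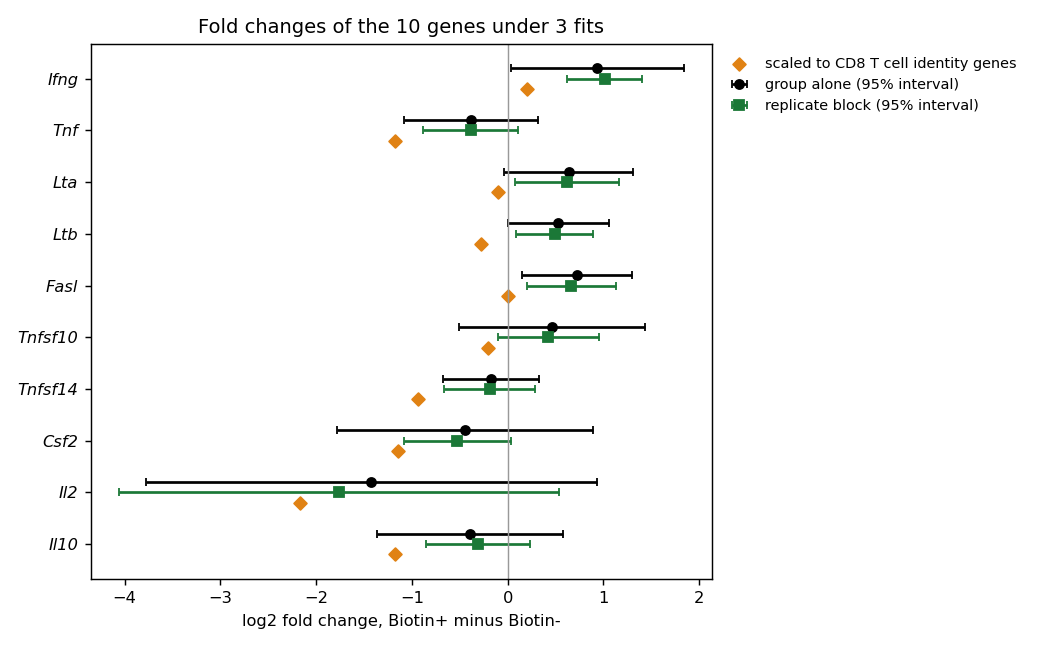
Log2 fold change (Biotin+ minus Biotin-) of each gene with the group alone (black, 95% interval), with the replicate number as a block (green, 95% interval) and with libraries scaled to 15 CD8 T cell identity genes (orange, no interval drawn). Only Ifng and Fasl have intervals above 0 in both of the first 2 fits, and in the identity scaling every gene moves to the left, Ifng to 0.21 and Fasl to 0.00.

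The receptors of these ligands moved in both directions. Of 15 tested, 2 were higher, 3 lower and 10 did not pass (median -0.12 beside 0.06 over all tested genes). Over all tested genes, 1.53% were called higher and 6.72% lower. The higher ones were chains of the IL-2 receptor. Il2rb, its signalling beta chain, was at 2789 ± 60.4 CPM (SD, n = 3) in Biotin+ against 1437 ± 230 in Biotin- (difference on the log2 scale 0.96 ± 0.22 SE, edgeR adjusted p = 0.0270), and Il2ra, the chain that gives high affinity, at 186 ± 56.7 and 83.3 ± 20.9 CPM (1.15 ± 0.27 SE, adjusted p = 0.0290). Under the identity scaling neither passed (log2 fold changes of 0.22 and 0.46).

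The lower receptors were Ltbr, the lymphotoxin beta receptor of stromal and myeloid cells, Ifngr2, the signalling chain of the interferon gamma receptor, and Tnfrsf10b, the TRAIL receptor, which is named outside the rule after its values were seen. Ltbr was at 6.78 ± 1.10 CPM (SD, n = 3) in Biotin+ against 25.3 ± 9.30 in Biotin- (difference on the log2 scale -1.90 ± 0.33 SE, edgeR adjusted p = 0.00883). Ifngr2 was at 9.55 ± 0.370 and 21.7 ± 3.98 CPM (-1.19 ± 0.25 SE, edgeR adjusted p = 0.0180). Ifngr1, the ligand-binding chain, is also named outside the rule. It was at 881 ± 171 and 606 ± 153 CPM and did not pass (0.54 ± 0.25 SE, edgeR adjusted p = 0.241, and 0.0467 with the replicate block). Tnfrsf10b had a log2 fold change of -1.59 ± 0.40 (SE, with an edgeR adjusted p of 0.0373). Fibroblast and endothelial markers were lower in the same libraries (0.00807 to 0.0211% against 0.0729 to 0.110% of counts), and their part in these receptors was not tested.

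Single libraries decided several of these receptor calls. Without Biotin+ replicate 2 none of the 3 lower receptors passed, while Il2ra and Il2rb did. Of these 5 receptors only Ltbr passed without Biotin- replicate 1 or without Biotin- replicate 3. Without Biotin+ replicate 3 or Biotin- replicate 2 neither IL-2 receptor chain and not Tnfrsf10b passed, and without Biotin+ replicate 1 Il2rb did not.

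Transcription factors that control cytokine genes included 0 higher and 1 lower of 20 in edgeR, and 3 higher and 3 lower before adjustment. There were 1 higher and 2 lower in DESeq2, and 4 higher and 3 lower with the replicate block. The shares of all tested genes higher and lower were 1.53% and 6.72% in edgeR and 8.62% and 13.9% before adjustment. They were 2.61% and 9.32% in DESeq2 and 5.60% and 12.0% with the block. The factor called lower in edgeR was Egr2, which is induced by antigen receptor signals and can limit cytokine output. Its log2 fold change was -1.51 ± 0.31 (SE, with an edgeR adjusted p of 0.0172). That call was lost when Biotin+ replicate 2, or replicate 1 or 3 of Biotin-, was left out. Tbx21 encodes T-bet, which drives Ifng transcription, and measured 186 ± 49.5 CPM (SD, n = 3) in Biotin+ against 95.2 ± 37.7 in Biotin- (difference on the log2 scale 0.97 ± 0.30 SE). It did not pass (edgeR adjusted p = 0.0761, and 0.000948 with the replicate block). The log2 fold change of Tbx21 was close to that of Ifng, where the CD8 T cell identity genes had a median of 0.73. Under the identity scaling it was 0.23 (edgeR adjusted p = 0.410). A link between Tbx21 and Ifng levels was not tested. Nr4a1, induced by antigen receptor signals, and Ikzf3, an Ikaros family repressor of Il2, had -0.85 ± 0.28 and 0.70 ± 0.26 (SE) and did not pass (adjusted p = 0.0937 and 0.135; 0.00171 and 0.0255 with the block).

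Among 14 regulators of cytokine mRNA decay and stability, 0 passed in edgeR (1 higher and 0 lower unadjusted) and in DESeq2. In limma-voom 1 was higher, and 1 was higher with the replicate block. All tested genes were higher at 8.62% unadjusted, 2.48% in limma-voom and 5.60% with the block. Zfp36 encodes tristetraprolin, a protein that binds AU-rich elements, and binding to the windows shown above was not measured. Zfp36 was at 439 ± 132 CPM (SD, n = 3) in Biotin+ against 608 ± 148 in Biotin- (difference on the log2 scale -0.47 ± 0.28 SE, edgeR adjusted p = 0.353). Arid5a, a factor that stabilises cytokine transcripts, had a log2 fold change of 0.59 ± 0.19 (SE, with an edgeR adjusted p of 0.0888; 0.0201 with the replicate block). Hnrnpd, an AU-rich element binding protein, had 0.32 ± 0.19, and Malt1, a protease that cleaves decay factors, 0.45 ± 0.29 (SE). Neither passed. The median of the 14 was 0.04.

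Of 7 tested genes of ligand shedding and processing, 1 was lower and 6 did not pass (median -0.09), where 6.72% of all tested genes were lower. Rhbdf1, an inactive rhomboid that helps mature the TNF-shedding protease ADAM17, had a log2 fold change of -2.26 ± 0.44 (SE, with an edgeR adjusted p of 0.0137), which was lost when replicate 1 or 2 of Biotin+, or replicate 3 of Biotin-, was left out. Its relative Rhbdf2, the form used by immune cells, had 0.47 ± 0.19 (SE, adjusted p = 0.179). Furin and Sppl2b, a proprotein convertase and an intramembrane protease, had -0.17 ± 0.27 and -0.16 ± 0.23 (SE) and did not pass. Here too, fibroblast and endothelial markers were lower in the libraries where Rhbdf1 was lower, and their part was not tested.

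Interferon gamma target genes lay on both sides of 0, with 8 positive log2 fold changes. Of 18 tested, 1 passed, on the lower side, and 17 did not (median -0.19), where 6.72% of all tested genes were called lower. Without adjustment, 3 were higher and 6 lower at p under 0.05, beside 8.62% and 13.9% of all tested genes. DESeq2 called 0 higher and 2 lower, beside 2.61% and 9.32% of genes. The lower one was Cxcl10, a chemokine that attracts activated T cells, at 60.1 ± 6.54 CPM (SD, n = 3) in Biotin+ against 126 ± 21.5 in Biotin- (difference on the log2 scale -1.07 ± 0.20 SE, edgeR adjusted p = 0.0123), a call lost without Biotin- replicate 3. Psmb8, an immunoproteasome subunit, had 0.66 ± 0.22, Iigp1, an interferon-inducible GTPase, -2.17 ± 0.75 and Nos2, the inducible nitric oxide synthase of myeloid cells, -1.35 ± 0.48 (SE). These 3 did not pass, and did with the replicate block (edgeR adjusted p = 0.0274, 1.86e-05 and 0.00836). With the block, 2 genes of the list were higher and 5 lower, beside 5.60% and 12.0% of all tested genes. The 9 macrophage and monocyte markers spanned 0.0274 to 0.0740% of counts in Biotin+ and 0.0624 to 0.254% in Biotin-, and their part in the lower members was not tested.

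Genes induced by TNF through NF-kappaB included 1 lower and 0 higher of 14 (0 higher and 1 lower unadjusted, in DESeq2 and in limma-voom; median 0.10). Shares of all tested genes called lower were 6.72% in edgeR, 9.32% in DESeq2 and 6.98% in limma-voom, and 13.9% were lower unadjusted. The lower one of the 14 was Cxcl1, a neutrophil-attracting chemokine of stromal and myeloid cells. Its log2 fold change was -1.59 ± 0.34 (SE, with an edgeR adjusted p of 0.0192), a call lost without Biotin+ replicate 2 or Biotin- replicate 1. Bcl3, Nfkbiz and Traf1, an atypical I-kappaB protein, another of that kind and a TNF receptor adaptor, had 0.57 ± 0.27, -0.62 ± 0.29 and 0.51 ± 0.25 (SE) and did not pass. With the replicate block Nfkbiz was called lower (edgeR adjusted p = 0.0364). Nfkbia and Tnfaip3, feedback inhibitors outside the naming rule and named after their values were seen, had -0.17 ± 0.37 and -0.01 ± 0.34 (SE).

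The intracellular death receptor pathway included 0 called genes out of 14 in edgeR (1 higher and 0 lower unadjusted), in DESeq2 and in limma-voom. It had 11 positive log2 fold changes and a median of 0.15. In edgeR, 8.26% of all tested genes were called, and 8.62% were higher unadjusted. Tradd, Fadd and Traf2, adaptors at the receptors, had 0.43 ± 0.24, 0.49 ± 0.28 and 0.34 ± 0.22 (SE) and did not pass.

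**Figure D4:**
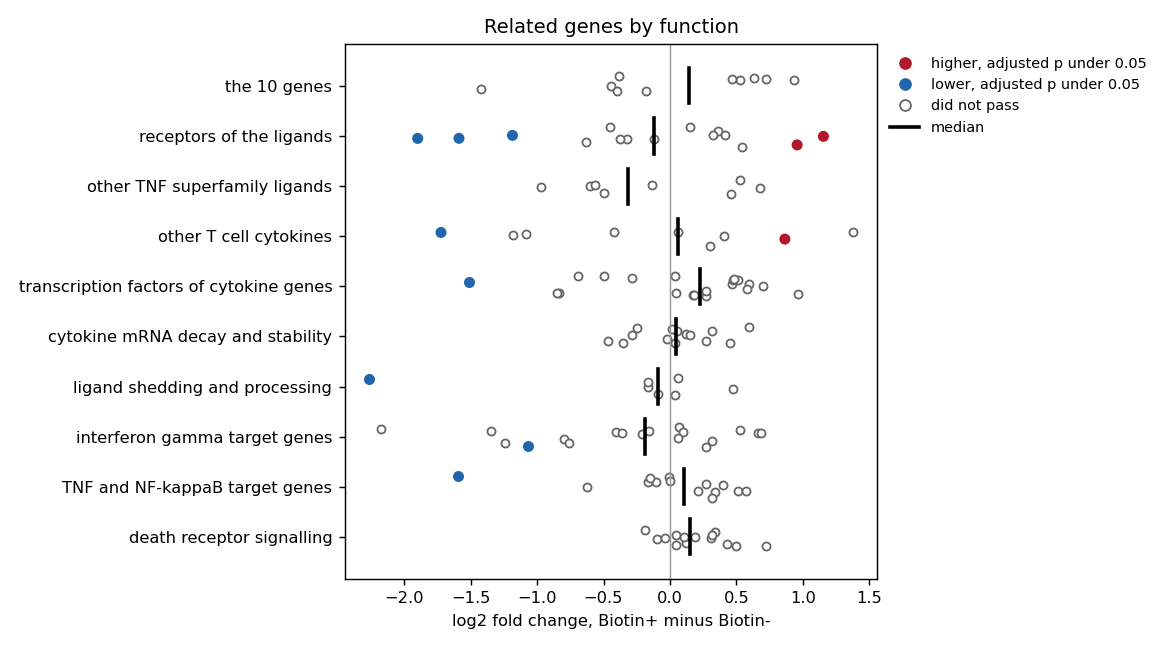
Log2 fold change (Biotin+ minus Biotin-) of every tested gene in each functional list and of the 10 ligand genes; filled points passed an edgeR adjusted p of 0.05 (red higher, blue lower), open points did not, and black bars are medians. Filled points are few: 2 higher and 3 lower among the receptors, and 0 among the 10 ligand genes, the decay regulators, the other TNF superfamily ligands and the death receptor pathway.

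Promoter sequence was available from RefSeq (GRCm38.p6) for 9 of the 10 genes. In the 250 bases before the start, searched on both strands, the NFAT core GGAAA was present in 9 of 9, beside 55.6% of 32851 windows of the same length, and TATAAA in 4 of 9 (Ifng, Tnf, Lta and Il2), beside 12.4%. The AP-1 motif TGANTCA was in 1 of 9 (Tnfsf14), beside 6.75%, and a kappaB motif, named only, in 1 of 9 (Ltb, overlapping its GGAAA), beside 4.65%. GGTGTGA, a T-box core, was in 0 of 9, beside 3.33%, which says only that these letters are absent from the windows. The windows of Ifng (chr10:118440796-118441045, plus strand) and Tnf (chr17:35202008-35202257, minus strand) are shown because these genes had log2 fold changes of opposite sign. Capitals mark TATAAA and GGAAA or its reverse complement.
Ifng: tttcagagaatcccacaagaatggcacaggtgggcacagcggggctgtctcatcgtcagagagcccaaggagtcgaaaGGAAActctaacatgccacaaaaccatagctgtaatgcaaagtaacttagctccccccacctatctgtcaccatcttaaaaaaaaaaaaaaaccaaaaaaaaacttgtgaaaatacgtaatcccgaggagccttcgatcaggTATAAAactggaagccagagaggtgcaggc
Tnf: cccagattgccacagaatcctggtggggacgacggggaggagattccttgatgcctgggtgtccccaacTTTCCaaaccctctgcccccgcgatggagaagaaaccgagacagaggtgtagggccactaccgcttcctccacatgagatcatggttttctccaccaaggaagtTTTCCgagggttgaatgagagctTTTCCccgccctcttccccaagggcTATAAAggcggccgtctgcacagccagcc
Both windows hold TATAAA at a like distance from the start, beginning 30 bases before it in Ifng and 29 in Tnf. Ifng has 1 NFAT core in the window and Tnf 3.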

How the data were processed

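The values are raw counts by gene symbol, deposited by the authors in a single table of 6 libraries, per the labels. The submitters' processing notes list Trim Galore 0.6.7, STAR 2.7.10a, Picard 1.14, featureCounts 2.0.1 and GRCm39 with no roles. For the annotation, strand setting and multi-mapping reads, the settings were not given in the sources used here, so reads of overlapping genes cannot be told apart. Groups and replicate numbers came from the titles.

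Counts of all genes were tested with edgeR 4.0.16 in R 4.3.3 (filterByExpr, TMM, robust quasi-likelihood F test, group alone), with Benjamini-Hochberg adjustment over 13360 genes and a threshold of 0.05. Standard errors were derived from each estimate and its F statistic, and CPM used TMM factors. Other tools were DESeq2 1.42.0 and limma 3.58.1. The members and lists were chosen with earlier results of these data known.

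Deviations from the group means correlated at 0.366, 0.263 and 0.393 for same-numbered libraries and at -0.0721 to -0.276 for others. On this basis the numbers were taken as pairs, from the same counts that were then tested. Deviations cancel within each group, so positive same-number values go with negative values for the others, which add no separate evidence. Within groups, all pairs of libraries differed beyond sampling error (35.6 to 103 chi-square units for each degree of freedom), and none was merged.

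Named genes are the 10 members, up to 4 of each functional list with the smallest p, and the 5 genes most like Ifng. Ifngr1, Tnfrsf10b, Nfkbia and Tnfaip3 are named outside this rule. Of the genes this rule names, 2 are not reported here. Exon lengths and 3′ regions came from GENCODE M21, the longest annotated region per gene. Counting bounds cover counting error only, since reads had no molecular identifiers.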

Additional observations from a re-analysis of the deposited data

How the results depend on the processing

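None of the 10 genes was called in edgeR with DESeq2 size factors, upper quartile or library size scaling, nor by DESeq2 or limma-voom. None of the 9 tested with a filter of CPM 1 in 3 libraries, which removed Il2, was called either. The number called higher was 1 without a filter on low counts (Ifng), 2 with the replicate block, 1 without both libraries numbered 2 (Ifng) and between 0 and 1 when single libraries were left out. The number called lower was 2 with the identity scaling and 4 with the identity scaling and the block, an alternative added after the data were seen. Over all genes, 205 were higher and 898 lower (18.6% higher). The counts higher and lower were 748 and 1599 with the replicate block, 25 and 3927 with the identity scaling (0.633% higher), 96 and 7441 with that scaling and the block, 396 and 1495 without a filter and 401 and 1435 in DESeq2. The number higher was 84 with library size alone and 331 in limma-voom. Without both libraries numbered 1, 2 or 3 the counts were 67 and 385, 46 and 445, and 39 and 588, and without single libraries 23 to 200 higher and 239 to 1044 lower. Library size alone moved the median of all genes by -0.20. Under the identity scaling with the block the signs of Lta (-0.14), Ltb (-0.27), Fasl (-0.091) and Tnfsf10 (-0.33) were reversed, and without the block those of Lta (-0.10), Ltb (-0.28) and Tnfsf10 (-0.21). Leaving out single libraries gave ranges that crossed 0 for Tnfsf10 (-0.14 to 0.76), Csf2 (-0.84 to 0.0039) and Il10 (-0.70 to 0.30). Without both libraries numbered 1, Tnfsf10 was at -0.0015 and Il10 at 0.12. The cause of these changes was not tested. Depth limits Il2, which had 12 counts in Biotin+ and 37 in Biotin-.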

Other observations

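Of 18 further T cell cytokine genes, 9 passed the filter on low counts. Of these 9, 1 was higher, 1 lower and 7 did not pass in edgeR, beside 1.53% and 6.72% of all tested genes. The median log2 fold change was 0.06, as over all tested genes. Tgfb1, which encodes the suppressive cytokine TGF-beta 1, was at 1257 ± 41.9 CPM (SD, n = 3) in Biotin+ against 691 ± 120 in Biotin- (difference on the log2 scale 0.86 ± 0.22 SE, edgeR adjusted p = 0.0345). It passed only with all libraries or without Biotin+ replicate 2, and had 0.13 when libraries were scaled to the CD8 T cell identity genes. Lif, which encodes leukemia inhibitory factor, was at 6.51 ± 3.50 and 21.6 ± 10.2 CPM (-1.72 ± 0.43 SE, adjusted p = 0.0354). It passed only with all libraries or without Biotin+ replicate 1 or Biotin- replicate 2. Il6, a cytokine of stromal and myeloid cells, and Il13, a type 2 cytokine, had -1.18 ± 0.60 and 1.38 ± 0.63 (SE) and did not pass. With the replicate block Il6 was called lower (edgeR adjusted p = 0.0386). The list then had 1 higher and 3 lower, beside 5.60% and 12.0% of all tested genes. Il13 averaged 1.63 ± 0.691 CPM (SD, n = 3) in Biotin+ against 0.622 ± 0.135 in Biotin-.

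The other 9 cytokine genes did not pass the filter on low counts. Over the 6 libraries together, Il4, Il9 and Il24 had 0 counts, Il5 had 1, Il22 had 11, Il21 had 16, Il17f had 19, Il3 had 23 and Il17a had 48.

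Of 12 other TNF superfamily ligands, 8 were tested and 0 passed in edgeR (0 at an unadjusted p under 0.05), in DESeq2, in limma-voom and with the replicate block, with a median of -0.32. Tnfsf9, the ligand of 4-1BB, was at 18.0 ± 8.39 and 27.2 ± 10.8 CPM (SD, n = 3), and Tnfsf8, the CD30 ligand, at 8.20 ± 2.13 and 11.6 ± 3.94 CPM. Tnfsf12 and Tnfsf13b, the genes of TWEAK and BAFF, averaged 1.73 and 1.07 CPM in Biotin+ and 3.41 and 1.58 CPM in Biotin-, with log2 fold changes of -0.97 ± 0.59 and -0.56 ± 0.59 (SE).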
